A study of Mus musculus with 8 samples.

Results

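The prostanoid receptors are the 9 genes Ptger1, Ptger2, Ptger3, Ptger4, Ptgfr, Ptgir, Ptgdr, Ptgdr2 and Tbxa2r, picked by symbol from a table of 19884 genes, and each of the 9 had 1 entry. RNA was sequenced from whole uterus (4 libraries) and whole maternal brain (4 libraries) of untreated wild-type C57BL/6J mice, aged 6 to 10 weeks and mated with fertile males. Both organs were taken on day 4 of gestation, counted from the vaginal plug on day 1, when blastocysts were found in the uterine flush. The labels give 4 mice for each organ and do not say whether the same mice gave both. The comparison of the organs asks which receptors the uterus carries at this stage and how that set differs from the set of the brain.

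Prostanoids are short-lived lipids made from arachidonic acid by cyclooxygenases and then by synthases that differ between the kinds. They act through receptors with 7 membrane-spanning segments: the EP receptors (Ptger genes) bind PGE2, FP (Ptgfr) binds PGF2α, IP (Ptgir) binds prostacyclin, DP1 and DP2 (Ptgdr and Ptgdr2) bind PGD2, and TP (Tbxa2r) binds thromboxane. EP2, EP4, IP and DP1 raise cyclic AMP through the G protein Gs. EP1, FP and TP raise calcium through Gq, and EP3 and DP2 mainly act through Gi. In the mouse uterus prostaglandins take part in the vascular and stromal changes of implantation and in contraction, and in brain they are known for fever and sleep.

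Libraries held 35394603 to 40254254 counts in uterus and 40115616 to 47790178 in brain, and levels are given as CPM, counts brought to a common library total with TMM scaling. The labelled organs matched their markers: Hoxa10 averaged 364 CPM in uterus and 0.0234 in brain, and Snap25 0.552 and 2411. Differences were tested over 16074 genes with the edgeR quasi-likelihood test and Benjamini-Hochberg adjustment, and each log2 fold change, with its SE, sets uterus over brain. In whole organs, fewer cells of a type and less RNA per cell cannot be told apart.

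All 9 receptor genes passed the filter on low counts. In uterus 7 of them were higher than in brain, 0 were lower, and 2, Ptger1 and Ptgdr, did not pass the test. The same test called 43.5% of all genes higher in uterus and 43.6% higher in brain, 87.0% in all. Against a 2-fold change the same 7 genes passed, where 23.5% of all genes did so toward uterus and 25.8% toward brain, 49.3% in all. The median log2 fold change of the 9 genes was 3.86, beside 0.012 over all genes tested. These 7 genes had all 4 uterus libraries above all 4 brain libraries, as had 42.0% of all genes tested, while 42.0% had all 4 below.

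**Figure D1:**
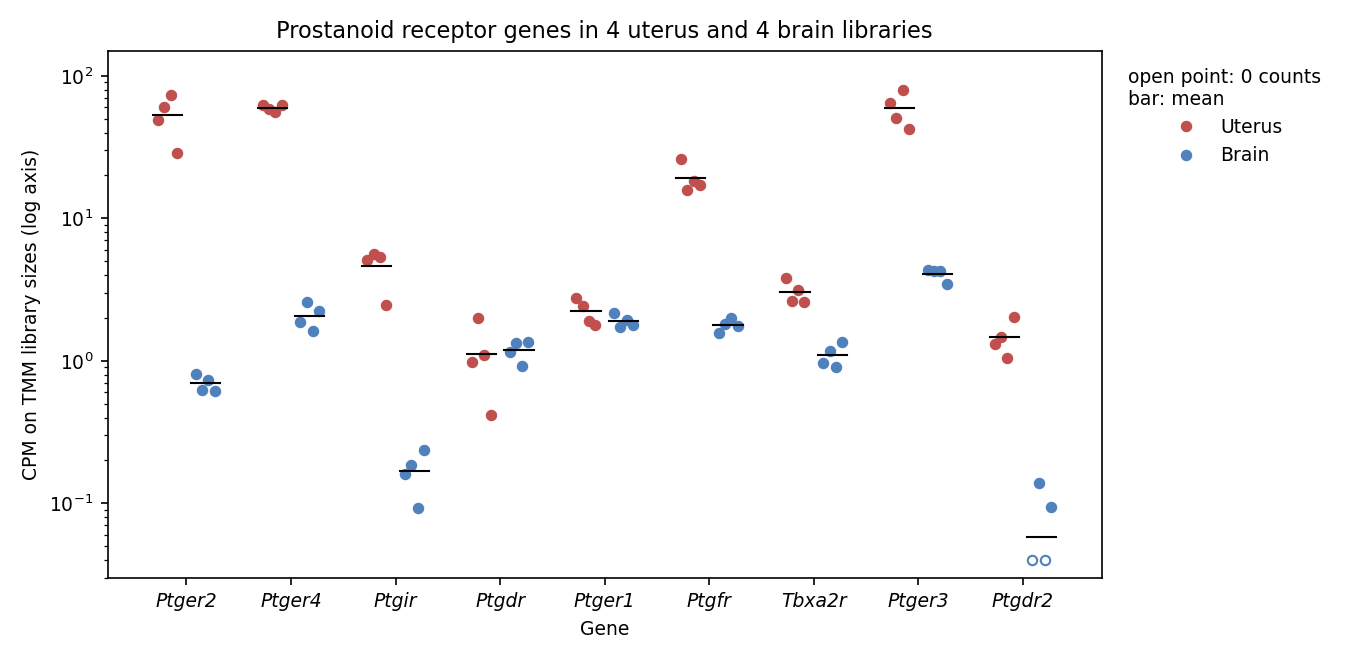
CPM on a log axis for each receptor gene, with 1 point per library, uterus left of brain within a gene, and bars at the means. The 4 uterus points lie above the 4 brain points for every gene except Ptgdr and Ptger1, and the open points of Ptgdr2 are brain libraries with 0 counts, drawn at the foot of the log axis.

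Ptger2 encodes EP2, which raises cyclic AMP and which in mice is needed for normal female fertility. It lies on chromosome 14 (44988195 to 45003820, plus strand, GENCODE M21 on GRCm38). Uterus libraries 1 to 4 held 49.4, 60.5, 73.0 and 28.8 CPM, and brain libraries 1 to 4 held 0.810, 0.623, 0.739 and 0.615 CPM. The lowest uterus library was library 4, and it still stood far above every brain library. Uterus over brain, this came to a log2 fold change of 6.25 ± 0.33 (adjusted p = 2.69e-08), or 75.9-fold with a 95% interval of 45.8 to 127.1. It was the largest of the 9 fold changes.

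Ptger4 encodes EP4, the other PGE2 receptor that couples to Gs, known in mice for closure of the ductus arteriosus after birth. The gene lies on chromosome 15 (5206661 to 5244187, minus strand). Its uterus libraries held 62.8, 58.6, 55.9 and 62.0 CPM and its brain libraries 1.86, 2.61, 1.62 and 2.22 CPM. The uterus libraries lay within 1.12-fold of each other (highest over lowest). Its log2 fold change was 4.84 ± 0.13 (adjusted p = 1.55e-10). On the opposite strand, the pseudogene Gm15937 covers 15.3% of the exon bases of Ptger4, and Ttc33 shares 1.23% and went the other way, with 24.1 CPM in uterus and 50.8 in brain.

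Ptgir encodes the prostacyclin receptor, known for relaxing vessels and restraining platelets, and lies on chromosome 7 (16906490 to 16910905, plus strand). It held 5.08, 5.62, 5.35 and 2.47 CPM in uterus and 0.162, 0.185, 0.0924 and 0.237 CPM in brain. Uterus library 4 was low here as for Ptger2. The brain values rest on 4 to 10 counts a library. Here the log2 fold change was 4.75 ± 0.37 (adjusted p = 5.42e-07).

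Ptgdr encodes DP1, through which PGD2 promotes sleep in mice, and is the Gs-coupled member that did not pass. It lies on chromosome 14 (44851235 to 44859375, minus strand), 128.8 kb from Ptger2 with 0 protein-coding genes between them. Its uterus libraries held 0.982, 1.999, 1.09 and 0.420 CPM and its brain libraries 1.16, 1.34, 0.924 and 1.35 CPM, so the organs overlapped. A log2 fold change of -0.09 ± 0.40 (adjusted p = 0.842) had a 95% interval of -0.98 to 0.80. Its sign turned without uterus library 4 (0.20) and under upper-quartile (0.17) and library-size (0.18) scaling. A stretch of 226 nt of its transcript is 98.2% identical to the annotated pseudogene Gm16976 in the same orientation, and 22.1% of its exon bases lie opposite the same pseudogene, so its level is uncertain.

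The sequences before these genes are shown because neighbouring genes and genes of 1 coupling class stood apart in level. Each line is the 250 bases before the RefSeq start (GRCm38.p6, read 5′ to 3′ along the gene's strand), where 8 of the 9 genes had an entry in the table used. Capitals mark matches on either strand to the GC box GGGCGG or to AGAACA, a core sequence that the progesterone receptor can bind. The lines belong to chr14:44987861-44988110, plus strand (Ptger2), chr14:44859376-44859625, minus strand (Ptgdr), chr15:5244188-5244437, minus strand (Ptger4), and chr3:157566626-157566875, plus strand (Ptger3).
Ptger2: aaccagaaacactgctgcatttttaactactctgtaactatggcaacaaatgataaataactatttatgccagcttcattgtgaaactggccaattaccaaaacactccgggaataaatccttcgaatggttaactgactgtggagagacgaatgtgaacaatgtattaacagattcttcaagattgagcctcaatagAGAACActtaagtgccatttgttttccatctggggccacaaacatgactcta
Ptgdr: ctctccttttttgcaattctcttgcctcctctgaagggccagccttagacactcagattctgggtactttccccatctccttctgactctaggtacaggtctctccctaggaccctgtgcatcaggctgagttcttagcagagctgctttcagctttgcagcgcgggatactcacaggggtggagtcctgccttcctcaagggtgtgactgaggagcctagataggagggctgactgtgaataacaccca
Ptger4: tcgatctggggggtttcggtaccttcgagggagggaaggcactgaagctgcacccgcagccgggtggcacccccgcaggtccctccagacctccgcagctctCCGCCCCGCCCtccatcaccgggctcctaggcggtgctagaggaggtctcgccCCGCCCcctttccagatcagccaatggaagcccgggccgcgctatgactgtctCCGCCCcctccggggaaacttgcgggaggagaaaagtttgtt
Ptger3: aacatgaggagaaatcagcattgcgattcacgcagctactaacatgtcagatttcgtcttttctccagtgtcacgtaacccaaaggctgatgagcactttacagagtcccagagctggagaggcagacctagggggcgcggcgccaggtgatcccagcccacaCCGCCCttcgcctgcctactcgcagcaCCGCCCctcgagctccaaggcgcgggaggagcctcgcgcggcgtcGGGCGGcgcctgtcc
The Ptger2 stretch was 38.0% G and C, that of Ptgdr 53.2%, that of Ptger3 62.0% and that of Ptger4 66.8%, where the median over 32851 promoters was 52.4%. Ptger4 held 4 matches to the GC box, a pair of which overlap by 1 base, and Ptger3 held 3, while Ptger2 and Ptgdr held 0. A GC box was present in 32.7% of all promoters. The single AGAACA of Ptger2 lay 52 bases before the start, and 16.1% of all promoters held this sequence. The palindromic oestrogen response element (0.0639% of promoters), the cyclic AMP element TGACGTCA (1.55%), the AP-1 site TGACTCA (4.46%) and TATAAA (12.4%) had 0 matches in these 4 stretches.

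Ptgfr encodes FP, the receptor of PGF2α, needed in mice for the fall of progesterone that starts labour. The gene lies on chromosome 3 (151796502 to 151837630, minus strand). Uterus libraries held 26.0, 15.7, 18.3 and 17.1 CPM and brain libraries 1.57, 1.80, 2.01 and 1.75 CPM. Uterus library 1 was the highest. Uterus exceeded brain by a log2 fold change of 3.43 ± 0.18 (adjusted p = 2.84e-08), the largest of the Gq-coupled members.

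Tbxa2r encodes the thromboxane receptor of platelets and smooth muscle, on chromosome 10 (81328731 to 81335172, plus strand). It held 3.801, 2.61, 3.14 and 2.59 CPM in uterus and 0.971, 1.18, 0.901 and 1.35 CPM in brain. The organs did not overlap, but the log2 fold change of 1.46 ± 0.21 (adjusted p = 7.19e-05) was the smallest of the 7 that passed. Against a 2-fold change it passed in edgeR (adjusted p = 0.0134), and not in DESeq2 (0.170) or limma-voom (0.0779). The 5 platelet markers were all present and summed to 15.3 to 18.03 CPM in uterus and 9.26 to 11.5 CPM in brain. Pf4 and Itga2b averaged 4.97 and 10.1 CPM in uterus and 0.933 and 3.04 in brain, while Gp1bb, Gp9 and Ppbp averaged 0.761, 0.0497 and 0.197 CPM in uterus and 5.79, 0.300 and 0.364 in brain. The part of platelets in the result was not tested.

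Ptger1 encodes EP1, a calcium-raising PGE2 receptor, on chromosome 8 (83666678 to 83672753, plus strand). It held 2.77, 2.42, 1.90 and 1.80 CPM in uterus and 2.16, 1.73, 1.94 and 1.80 CPM in brain, and the organs overlapped. The log2 fold change was 0.22 ± 0.19 (95% interval -0.20 to 0.65, adjusted p = 0.291). It passed under upper-quartile scaling (0.48, adjusted p = 0.0387) and library-size scaling (0.48, adjusted p = 0.0386), which moved the median of all genes to 0.268 and 0.269. The strand setting of the counting is not stated in the sources used here, and the level of Ptger1 is uncertain for that reason.

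Ptger3 encodes EP3, which lowers cyclic AMP and in mouse brain mediates fever. It lies on chromosome 3 (157566892 to 157645888, plus strand), and 0 other annotated genes overlap its exons. Uterus libraries held 64.2, 51.0, 79.7 and 42.7 CPM and brain libraries 4.37, 4.24, 4.25 and 3.45 CPM. Library 3 was highest and library 4 lowest among the uteri. The log2 fold change was 3.86 ± 0.20 (adjusted p = 2.41e-08). Ptger3 had the highest mean CPM of the 9 in brain, but per exon length its brain libraries overlapped those of Tbxa2r.

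Ptgdr2 encodes DP2, a receptor that draws eosinophils and type 2 lymphocytes toward PGD2, on chromosome 19 (10937160 to 10942511, plus strand). It held 1.31, 1.48, 1.04 and 2.03 CPM in uterus. In brain libraries 1 and 3 it had 0 counts, which allows up to 0.0809 and 0.0693 CPM (3 counts a library, counting error only), and libraries 2 and 4 held 0.138 and 0.0946 CPM from 6 and 4 counts. The log2 fold change was 4.55 ± 0.62 (adjusted p = 5.12e-05), or 5.38 without brain library 2 and 4.14 without brain library 3. Ccdc86, on the opposite strand, covers 39.0% of the exon bases of Ptgdr2 and was also higher in uterus, at 22.4 ± 0.842 against 6.21 ± 0.167 CPM (SD, n = 4 each, 1.85 ± 0.07). In brain libraries 1 and 3, where Ptgdr2 had 0 counts, Ccdc86 had 221 and 271. All 6 markers of eosinophils and group 2 lymphocytes had counts and summed to 3.47 to 6.29 CPM in uterus and 2.93 to 3.89 in brain. Prg2, Il5ra and Il1rl1 averaged 0.393, 0.256 and 1.57 CPM in uterus and 0.0407, 0.00675 and 0.277 in brain. Epx averaged 0.0190 CPM in uterus and 0.461 in brain, Siglecf 0.463 and 0.410, and Gata3 2.29 and 2.27. The part of these cells in the Ptgdr2 difference was not tested.

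**Figure D2:**
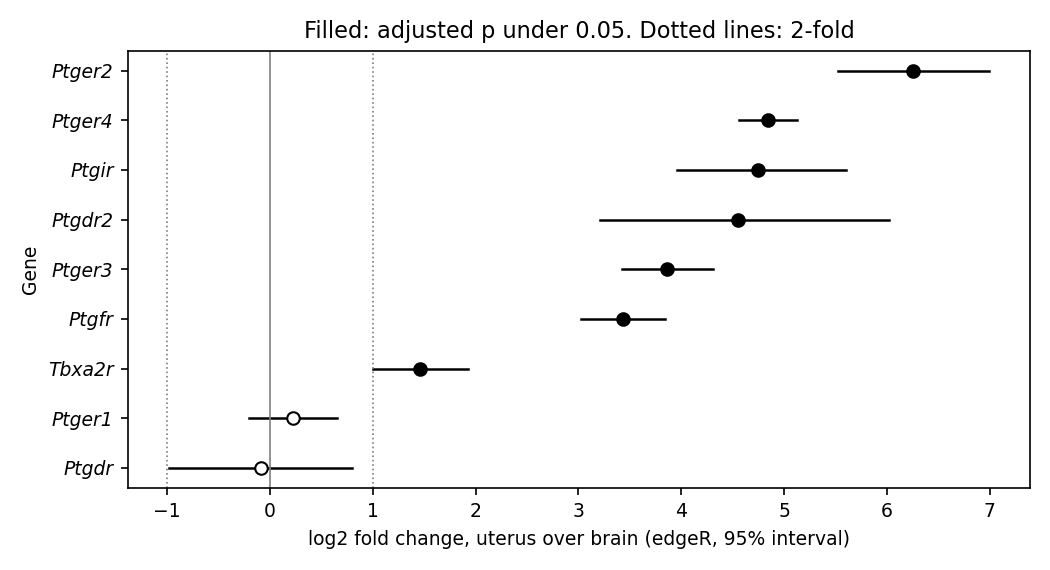
Log2 fold change, uterus over brain, of each receptor gene with its 95% interval from edgeR, where filled points have an adjusted p under 0.05. Ptger2 is at 6.25, Ptgdr and Ptger1 straddle 0, and the widest interval among the 7 filled points is that of Ptgdr2 (3.21 to 6.02).

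Levels of different genes were compared as CPM per kilobase of annotated exon (RPKM). In uterus Ptger3, Ptger2 and Ptger4 stood together at 10.4 ± 2.84, 10.2 ± 3.61 and 9.0 ± 0.484 RPKM (SD, n = 4). Their libraries overlapped, so the order of these 3 is not set beyond their spread. Ptgfr followed at 2.84 ± 0.680 RPKM, apart from both neighbours in the order, since every library of Ptger4 was above and every library of Tbxa2r below it. Tbxa2r and Ptgir came next, at 1.58 ± 0.298 and 1.39 ± 0.437 RPKM, and overlapped. Ptgdr2, Ptger1 and Ptgdr closed the order at 0.554 ± 0.158, 0.407 ± 0.0835 and 0.352 ± 0.205 RPKM, each overlapping the next.

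In brain Ptger3 led at 0.717 ± 0.0742 RPKM and overlapped Tbxa2r at 0.573 ± 0.106 (SD, n = 4). Ptgdr, Ptger1, Ptger4 and Ptgfr followed at 0.374 ± 0.0623, 0.349 ± 0.0348, 0.312 ± 0.0649 and 0.263 ± 0.0269 RPKM, with overlap between each and the next. Ptger2 stood below all of them at 0.134 ± 0.0182 RPKM, and its libraries overlapped neither neighbour in the order. Ptgir and Ptgdr2 were lowest, at 0.0506 ± 0.0179 and 0.0220 ± 0.0263 RPKM. Ptger2 was thus among the 3 leading receptor genes of the uterus and in place 7 of 9 in the brain. Ptger3 had the highest mean in both, with libraries that overlapped those of Ptger2 in uterus and those of Tbxa2r in brain. With the longest transcript in place of all exons, Ptger4 was in place 2 in uterus and in place 3 in brain.

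The 9 genes summed to 38.9, 36.4, 43.5 and 28.2 RPKM in uterus and to 2.75, 2.98, 2.57 and 2.88 RPKM in brain. Genes of Gs-coupled receptors made up 57.0 ± 3.89% of that sum in uterus and 31.1 ± 2.67% in brain (SD, n = 4 each). The Gq-coupled class took 13.3 ± 2.68% in uterus and 42.4 ± 2.16% in brain, and for both classes the organs did not overlap. For the Gi-coupled class, at 29.7 ± 2.87% in uterus and 26.5 ± 2.95% in brain, they overlapped. These shares are descriptions, and those of Ptger1, Ptgdr and Ptgdr2 carry the limits given above. Ptgdr made up 0.942 ± 0.542% of the uterus sum and 13.3 ± 1.49% of the brain sum.

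By ligand, the 4 PGE2 receptor genes took 81.6 ± 2.39% of the sum in uterus and 54.3 ± 4.71% in brain. Tbxa2r alone took 4.34 ± 0.696% in uterus and 20.4 ± 2.86% in brain, and the PGD2 receptor genes 2.55 ± 0.792% and 14.1 ± 2.24%. Ptgfr took 7.84 ± 1.84% in uterus and 9.45 ± 1.41% in brain, and the libraries overlapped. The ratio of Ptger2 to Ptger4 RPKM, which no scaling of libraries changes, was 1.006, 1.32, 1.67 and 0.594 in uterus and 0.557, 0.306, 0.585 and 0.354 in brain. Uterus library 4 thus lay just above the highest brain library.

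**Figure D3:**
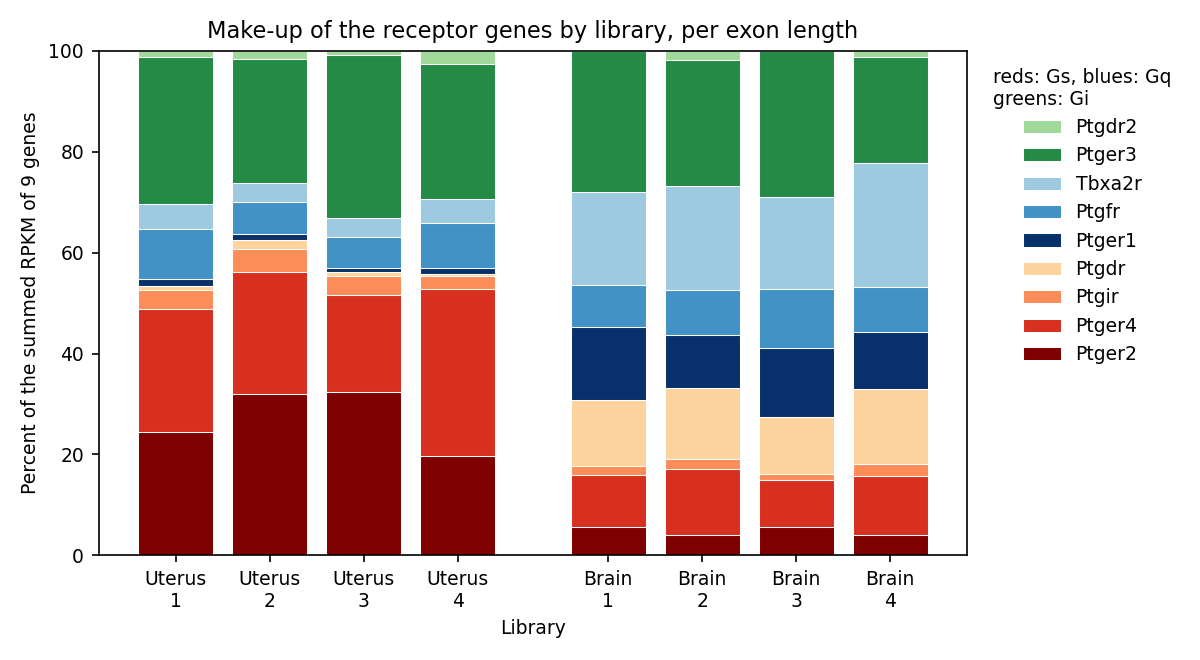
Percent of the summed RPKM of the 9 genes taken by each gene in each library, uterus bars left of brain bars, with reds and oranges for Gs-coupled, blues for Gq-coupled and greens for Gi-coupled receptors. The reds and oranges together average 57.0% in uterus and 31.1% in brain, the blues 13.3% and 42.4%.

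Receptor genes differed in how evenly the 4 uteri carried them. The SD of log2 CPM over the uterus libraries was 0.579 for Ptger2, above 97.9% of the 11873 genes with a mean of at least 5 CPM in uterus. It was 0.392 for Ptger3 (94.6%) and 0.319 for Ptgfr (91.4%), but 0.078 for Ptger4 (31.7%), where the median of those genes was 0.107. Among the receptor genes below that level, the SD ran from 0.259 for Tbxa2r to 0.875 for Ptgdr.

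Uterus library 4 was lowest for Ptger2, Ptgir and Ptgdr, at -0.80, -0.82 and -1.14 from the uterus mean on the log2 scale, and for Ptger3, Ptger1 and Tbxa2r, at -0.44, -0.28 and -0.21. It was the highest for Ptgdr2, at 0.50, and near the mean for Ptger4, at 0.05. The 6 gland markers summed to 77.7 CPM in library 4 and up to 1191 in library 2, against 0.553 to 1.16 in brain, where Cxcl15 and Spink1 were at 0. Prss28, Prss29 and Spink1 carried that sum, with their highest level in library 2 (222, 559 and 339 CPM) and their lowest in library 4 (0.653, 2.28 and 4.89 CPM). Foxa2 and Lif were highest in library 3 (13.6 and 53.2 CPM). They were nearly equal in library 1 (8.96 and 33.55 CPM) and library 4 (8.86 and 33.42 CPM), below the other libraries. Cxcl15 was highest in library 4, with 16.6, 18.9, 25.2 and 27.6 CPM in libraries 1 to 4. The general epithelial markers varied less, from 578 to 699 CPM in uterus, against 5.90 to 9.10 in brain.

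In the luminal list, Calb1 and Lpar3 were highest in library 4, at 204 and 46.5 CPM, with 36.7 to 55.6 and 20.0 to 31.4 in the others, while Wnt7a was highest in library 1. The 4 luminal genes summed to 94.7 to 293 CPM in uterus and 318 to 348 in brain, where Calb1 makes up most of the sum, and 0 of the 4 were at 0 in either organ. The 5 mast cell markers deviated on average by 1.29 in library 3 and -1.21 in library 4, where Ptger3 was highest and lowest. Cpa3, Mcpt4 and Tpsb2 were each highest in library 3 and lowest in library 4. Kit was highest in library 2 (94.3 CPM), and Ms4a2 was lowest there (0.0235 CPM). The 5 markers summed to 44.4 to 100.1 CPM in uterus and 87.6 to 97.0 in brain, most of it Kit, and 0 of the 5 were at 0. Cpa3 held 1.99, 2.96, 6.29 and 0.606 CPM in uterus libraries 1 to 4. The part of glands, luminal cells and mast cells in these deviations was not tested. Without uterus libraries 2 and 4, a choice made after seeing the data, the same 7 genes were called.

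**Figure D4:**
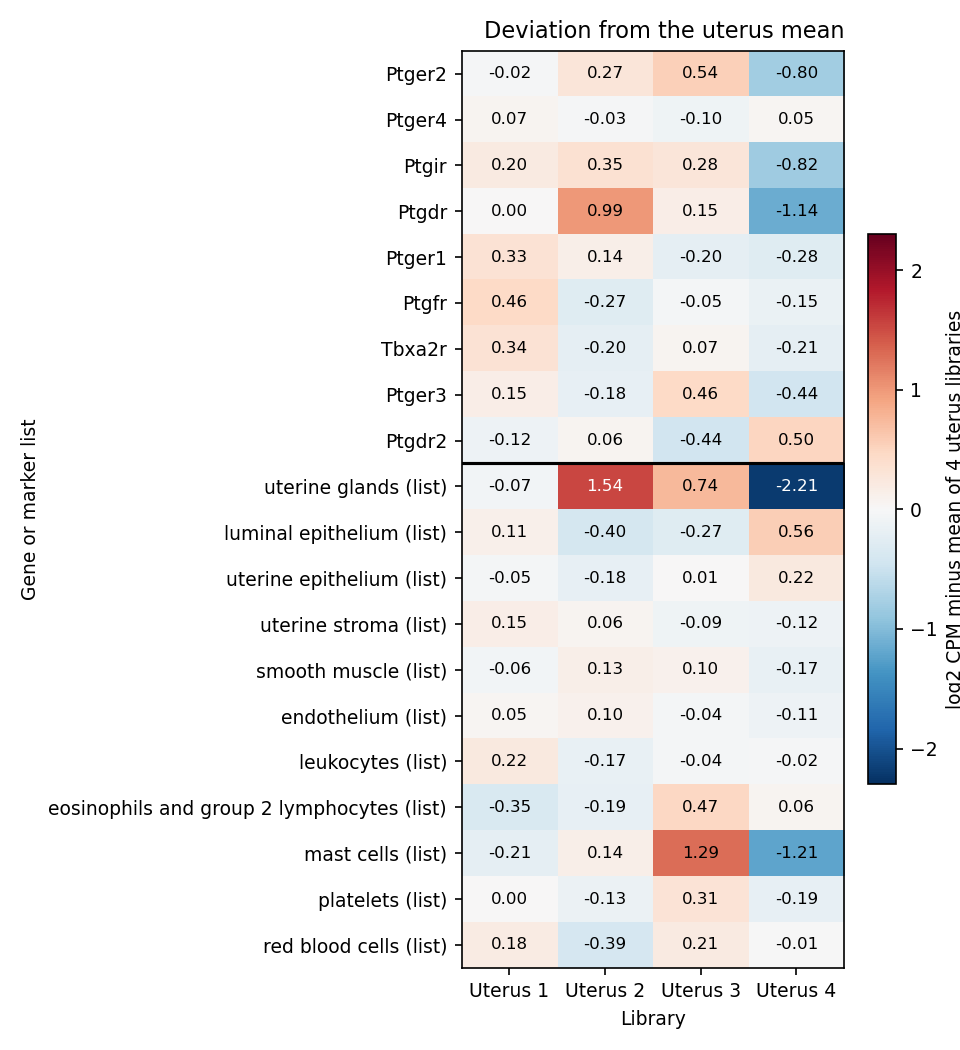
Log2 CPM minus the mean of the 4 uterus libraries for each receptor gene (above the line) and averaged over each marker list (below it). Ptger2, Ptgir and Ptgdr are low in library 4, where the gland list is at -2.21, and the row of Ptger4 stays between -0.10 and 0.07.

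Genes whose course over the 8 libraries was most like that of a receptor were found by the root mean square difference of centred log2 CPM among 13086 genes. For Ptger4 they were Gimap9, Nid1 and Adamts9, at 0.10, 0.14 and 0.15. For Ptger3 they were Lyve1, Mst1r and Pdlim4 (0.14, 0.17 and 0.18), and for Ptgfr Ltbp1, Csrp2 and Gja4 (0.12, 0.13 and 0.13). The nearest to Ptger2 were Scara5, Slc1a5 and Tpm2, at 0.29, 0.29 and 0.31. The organ difference sets most of this likeness, and none of the 3 genes near Ptger2 spanned its range within uterus: Scara5 ran from 111.8 to 161.5 CPM there.

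Enzymes that supply the ligands were mostly higher in uterus: 8 of 12 tested, with 4 higher in brain. Over all genes tested, 43.5% were higher in uterus and 43.6% in brain, and these shares stand beside the count of each list that follows. Ptgis, the prostacyclin synthase gene, stood at 46.7 ± 3.85 CPM in uterus and 4.04 ± 0.208 in brain (3.53 ± 0.08), in the direction of Ptgir. Among the PGE2 synthase genes, Ptges was higher in uterus, at 19.3 ± 3.71 against 4.35 ± 0.365 CPM (2.15 ± 0.15), as was Ptges3 (1.21 ± 0.11), while Ptges2 was higher in brain, at 20.1 ± 1.43 CPM in uterus and 33.3 ± 2.01 in brain (-0.73 ± 0.07). The cyclooxygenase gene Ptgs1 was higher in uterus (1.39 ± 0.10) and Ptgs2 in brain, at 6.93 ± 2.64 CPM in uterus and 12.7 ± 3.46 in brain (-0.87 ± 0.28). For Ptgs2 the edgeR adjusted p was 0.0146 and the organs overlapped. Uterus library 4 held 10.02 CPM of it and brain library 4 held 9.44. Tbxas1, the thromboxane synthase gene, stood at 6.70 ± 0.340 and 2.64 ± 0.386 CPM (1.34 ± 0.14). For PGD2 the brain enzyme Ptgds stood at 0.412 ± 0.191 CPM in uterus and 733 ± 11.8 in brain, while Hpgds, the synthase gene of blood cells, was higher in uterus at 32.4 ± 12.9 against 9.72 ± 1.88 CPM (1.74 ± 0.28). The rest of the list held Pla2g4a and Akr1b3, higher in uterus (3.42 ± 0.21 and 1.13 ± 0.06), and Fam213b, higher in brain. Fam213b stood at 7.25 ± 0.523 CPM in uterus and 51.1 ± 2.96 in brain (-2.82 ± 0.07). All SDs here are over n = 4 libraries.

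Of 5 genes for breakdown and transport, 4 were higher in uterus and 1, Ptgr2, in brain. Slco2a1, the prostaglandin uptake carrier, differed by 3.43 ± 0.16, and Hpgd, the enzyme that inactivates prostaglandins inside the cell, by 2.32 ± 0.13. Ptgfrn, which encodes a protein that binds and restrains FP, was also higher in uterus, at 168 ± 26.3 CPM against 46.2 ± 2.33 (1.86 ± 0.11).

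The genes that act just behind the receptors were split between the organs. Both Gs class genes were higher in brain: Gnas at 17.7 ± 0.660 CPM in uterus and 76.4 ± 5.603 in brain, and Gnal, the olfactory form, at 10.4 ± 0.578 and 250.2 ± 8.41. Other genes overlap 22% of the exon bases of Gnas. Of 9 adenylyl cyclase genes, which make cyclic AMP, 3 were higher in uterus (Adcy4, Adcy6 and Adcy7) and 6 in brain. Adcy4 stood at 43.3 ± 3.65 against 5.76 ± 0.365 CPM (2.91 ± 0.08), while Adcy8 stood at 0.0907 ± 0.0650 against 44.2 ± 1.71 (-8.88 ± 0.24).

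In the Gq class Gna14 was higher in uterus, at 19.2 ± 3.06 CPM against 0.608 ± 0.126 (4.97 ± 0.19), Gnaq and Gna11 were higher in brain, and Gna15 did not pass (1.21 against 1.80 CPM). Of the phospholipase C beta genes that Gq activates, Plcb2 and Plcb3 were higher in uterus and Plcb1 and Plcb4 in brain. In the Gi class Gnai2 and Gnai3 were higher in uterus, and Gnai1, Gnao1 and Gnaz in brain. The G12 class held Gna13, higher in uterus by 0.25 ± 0.05, and Gna12, higher in brain (-0.28 ± 0.06).

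Receptor kinases and arrestins, which switch receptors off, gave 1 of 6 higher in uterus (Grk6, 0.15 ± 0.05), 4 higher in brain and 1, Grk5, that did not pass. The nuclear receptor genes Ppara, Ppard and Pparg were all 3 higher in brain, by -0.98, -0.24 and -0.80. Over the 53 tested genes of these lists, 23 passed toward uterus and 28 toward brain (median log2 fold change -0.29), or 24 and 23 under upper-quartile and library-size scaling. These counts stand beside 43.5% and 43.6% of all 16074 genes, and upper-quartile scaling moved the counts over all genes to 8182 toward uterus and 5966 toward brain.

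**Figure D5:**
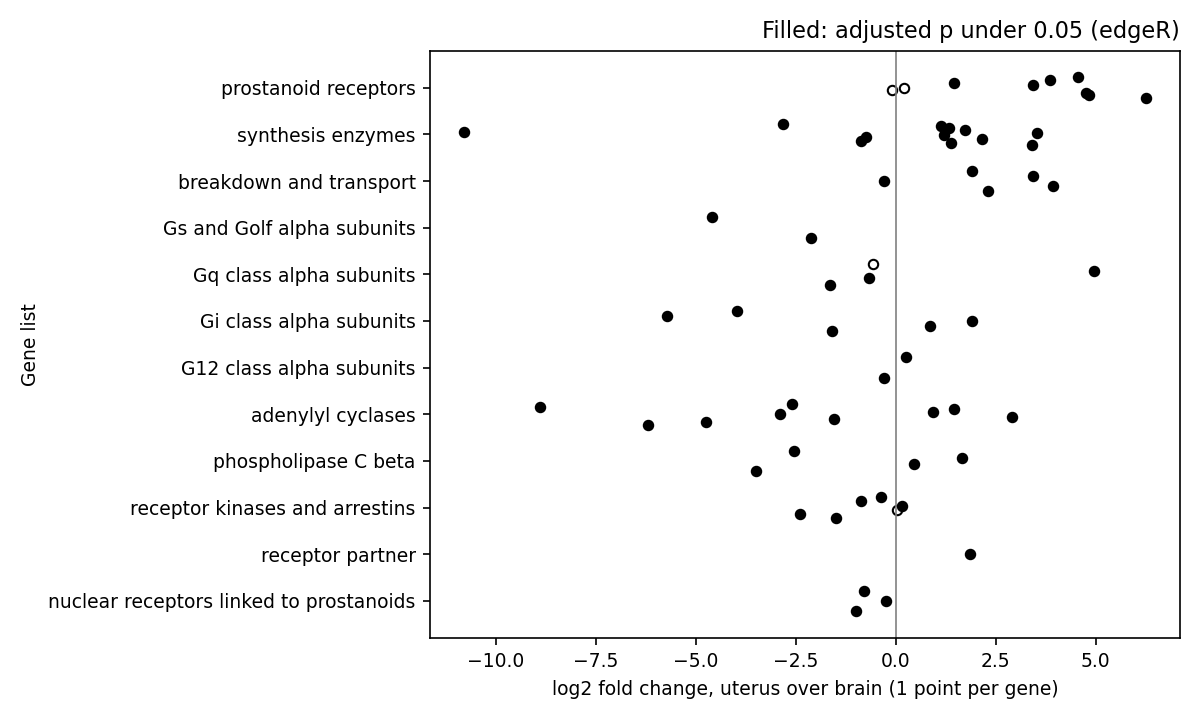
Log2 fold change, uterus over brain, with 1 point per gene for the receptors (top row) and the lists of pathway genes, where filled points have an adjusted p under 0.05. The receptors lie near 0 or right of it. The Gq, Gi and G12 class, cyclase and phospholipase lists spread to both sides, and both Gs class genes lie left of 0.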

How the data were processed

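The authors deposited raw counts per gene, whole numbers with no normalization. Per the submitters' processing notes, FastQC, HISAT2 2.0.3, featureCounts and edgeR were used with GRCm38.p5. Per the labels' protocols, the kit was stranded and removed ribosomal RNA. The sources used here do not state the strand setting, annotation release or treatment of multi-mapping reads. Of the 19884 genes, 19808 (99.6%) were matched by identifier to GENCODE M21 (GRCm38), which gave coordinates, exon lengths and overlaps.

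From these counts, filterByExpr by organ, TMM, glmQLFit, glmQLFTest and glmTreat (2-fold) were run in edgeR 4.0.16 (R 4.3.3) at an adjusted p of 0.05, two-sided, after a check on simulated counts. SE is the unshrunken log2 fold change over the square root of F, and intervals are 95%. Spread and likeness used log2 CPM with a prior count of 2 and genes at 5 CPM or more. DESeq2 1.42.0 and limma 3.58.1 (alternatives), BLAST+ 2.17.0 (98% identity, 150 nt), pandas 2.3.3 and matplotlib 3.10.9 complete the tools. RPKM is CPM per kilobase of merged exons. Promoters are RefSeq's (GRCm38.p6), with 250 bases kept.

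The receptors, the pathway and marker lists and the rule for naming genes (all 9 receptors, list genes, overlapping genes and the 3 most alike genes) were chosen with earlier results of these data known. Ttc33 and Ccdc86 are named for overlap, and some items are not reported here. No batch is given in the labels. Alternatives were other scalings, filters, tools, an adjusted p of 0.01, a block for replicate number, other lengths and priors, and leaving out libraries. Limits from counts cover counting error only, whereas the intervals of fold changes rest on the SE of the edgeR fit. The labels give 4 mice for each organ. The p-values set the organ difference against the spread between libraries of an organ, without pairing in the main fit.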

Additional observations from a re-analysis of the deposited data

Results flagged for a closer look

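Among 18 sets of 4 libraries (9 receptor genes in each organ), 2 had a library far from the other 3, where chance gives about 1 in 20 sets. Ptgir was lowest in uterus library 4, at 2.47 CPM, with the other uterus libraries between 5.08 and 5.62 CPM. Its gap to the next library was 0.830 of the whole range, just past the limit for 4 libraries. Ptger3 was lowest in brain library 4, at 3.45 CPM, with the other brain libraries between 4.24 and 4.37 CPM and a gap of 0.860 of the range.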

How the results depend on the processing

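The count of receptor genes higher in uterus was 7 with the replicate block, with each library left out in turn (7 to 7) and without uterus libraries 2 and 4. The labels leave unstated whether equal numbers mark the same mice, so the numbers were not used as pairs in the main fit. Deviations of same-numbered libraries correlated across genes at r = -0.048, 0.002, 0.083 and 0.074 for numbers 1 to 4. Libraries with different numbers gave -0.084 to 0.100. Organs of 1 mouse need not deviate together, so these values cannot decide whether the numbers mark pairs. With the block and with libraries left out, the count higher in brain was 0, and 0 also at 2-fold. Toward uterus the 2-fold count was 7, or 6 with DESeq2, with limma-voom and at an adjusted p of 0.01, where Tbxa2r was lost. Signs turned for Ptgdr alone, to 0.17 (upper-quartile), 0.18 (library size) and 0.20 (without uterus library 4), and its log2 fold change ran from -0.52 to 0.20 as libraries were left out. Ptger1 passed at 0.48 under upper-quartile and library-size scaling, which made the count 8. The longest transcript in place of merged exons gave the Gq-coupled class 9.28% in uterus and 34.9% in brain, and the Gi-coupled class 32.6% in brain; the cause is the changed lengths. Over 20 counts a library stand behind every receptor level except those of Ptgdr2 and Ptgir in brain and Ptgdr in uterus library 4, so folds of these rest on few reads.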

Other observations

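Markers of the embryo were near or at 0 in the whole uteri. Cdx2, a trophoblast gene, and Pou5f1, a gene of the inner cell mass, had 0 counts in all 4 uterus libraries, and Nanog averaged 0.0553 CPM in uterus and 0.0466 in brain. The 4 genes of the trophoblast and embryo list summed to 0.634 to 1.77 CPM in uterus and 0.324 to 0.832 in brain, most of it Elf5.

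The summed levels of smooth muscle and of endothelial markers varied little between uteri. The 5 muscle genes summed to 4713 to 5539 CPM in uterus and 34.7 to 42.5 in brain, and the 4 endothelial genes to 635 to 731 in uterus and 67.9 to 78.9 in brain. Within the muscle list, Des ran from 523 to 779 CPM and Cnn1 from 422 to 572, while Acta2 ran from 2015 to 2276. Ptgfr ranged from 15.7 to 26.0 CPM over the same uteri. The part of muscle and endothelium in that range was not tested.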
